A study of Drosophila melanogaster with 3 samples.

Results

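The regions described here are the 1437 peaks of open chromatin that were at least 1000 bp wide and had a fold enrichment below 3.0 in the pupal abdominal epidermis of Drosophila melanogaster. They made up 4.14% of the 34718 peaks in the merged list and covered 1824.84 kb, or 11.8% of all sequence under peaks. They were chosen by their width and their fold enrichment, so both values, and the reads behind them, are given as a description only. The tissue came from wild-type pupae of 38 to 45 h after puparium formation, with 3 replicates of 50 pooled pupae each and no treatment. The labels name no strain and no sex. The internal organs were taken out by hand and the epidermal cells stayed on the cuticle, so cells of other tissues that adhered to it may be in the sample. All replicates were combined in 1 peak list, and no value below has a replicate error.

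ATAC-seq marks DNA that a transposase can reach, which is mostly DNA not wrapped in nucleosomes. In fly tissue such openings lie at promoters, near the ends of genes, and at enhancers, many of which lie in introns or between genes. A narrow opening often holds one promoter or one enhancer, and a broad one can hold several factor-bound stretches side by side or a promoter joined to a neighbouring enhancer. The abdominal epidermis at this pupal age is the cell sheet that secretes the adult cuticle, under the control of the steroid hormone ecdysone.

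Open chromatin at marker genes was compared with the labelled tissue. Each of the 4 epidermal markers had a summit within 500 bp of an end of the gene, with the highest fold enrichment at 2.34 for grh, 2.52 for shg, 3.38 for Fas3 and 3.92 for vvl. Tracheal cells also use vvl. All 3 muscle markers, Mef2, Mhc and sls, had such a peak too, with a highest fold enrichment from 2.09 to 2.30, as did the tracheal gene trh at 3.03. So did the neuronal gene elav, the fat body gene Lsp2 and both markers each of hemocytes and oenocytes, at 1.72 to 2.53. No peak lay at an end of the neuronal gene nSyb or the fat body gene Fbp1. The part of other cell types in the results below was not tested. In a bulk sample, a site open in few cells and a site open weakly in many cells cannot be told apart. Sequencing depth per replicate is unknown.

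The broad peaks below 3.0 ranged from 1000 to 2823 bp in width, with a median of 1194 bp and an interquartile range of 1074 to 1384 bp. Only 236 (16.4%) were 1500 bp or wider, and 30 reached 2000 bp. Their fold enrichment, the authors' ratio of reads at the summit to a local background, ran from 1.59 to 3.00 with a median of 2.51 and an interquartile range of 2.25 to 2.74. These values are moderate only against the threshold of 3.0. Over all peaks the median fold enrichment was 2.01 and the upper quartile 2.40, and 1315 of the 1437 (91.5%) stood above that median. Above the upper quartile stood 891 (62.0%). At or above the median −log10 q of the list stood 1379 (96.0%). The label of moderate enrichment thus does not describe their rank among all peaks.

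**Figure D1:**
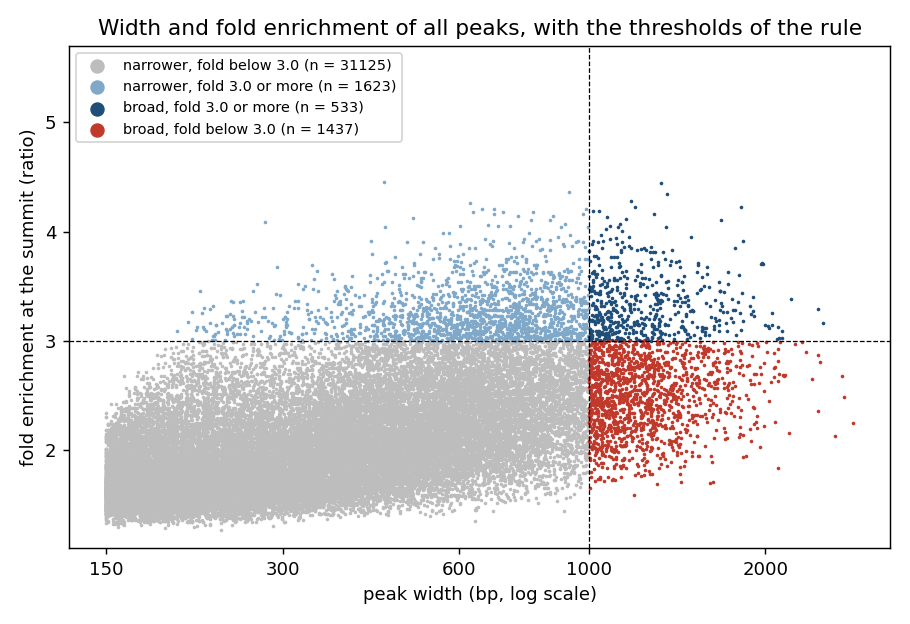
Peak width in bp (horizontal axis, log scale) against the fold enrichment at the summit (vertical axis, a ratio) for all 34718 peaks, 1 point each, with dashed lines at 1000 bp and 3.0. The 1437 broad peaks below 3.0 fill the lower right corner, with a median width of 1194 bp and a median fold enrichment of 2.51.

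Neither threshold lay at a gap in the values. The highest fold enrichments inside the rule were 2.9986 at the end of CG2924, 2.9979 at the end of CG30440 and 2.9970 at the end of Baldspot, which encodes a fatty acid elongase. Just outside were 3.0006 inside Pka-R2, which encodes a regulatory subunit of protein kinase A, 3.0012 at ca and 3.0017 at CG1648. There were 124 broad peaks from 2.9 to under 3.0 and 116 from 3.0 to under 3.1. At the width threshold, sit, CG9312 and RtGEF were nearest to members of exactly 1000 bp, and CG15465, mib1 and Pli to peaks below 3.0 of 999 bp. There were 261 peaks below 3.0 of 1000 to 1049 bp and 305 of 950 to 999 bp.

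The number of overlapping reads at each summit was nearly as high as in the broad peaks that reached 3.0. The median pileup was 204 reads in the 1437 peaks, 211 in the 533 broad peaks of 3.0 or more and 143 in the 31125 narrower peaks below 3.0. The local background differed more. Its median was 79.5 reads in the broad peaks below 3.0, 61.3 in the broad peaks of 3.0 or more and 68.6 in the narrower peaks below 3.0. A background above 83.9 reads, the highest among the broad peaks of 3.0 or more, was found at 568 (39.5%) of the broad peaks below 3.0. The background had a floor of 57.2 reads, where 107 (7.45%) of the broad peaks below 3.0 stood, against 27.8% of the broad peaks of 3.0 or more. Had every peak been divided by that floor, 1158 (80.6%) of the broad peaks below 3.0 would have reached 3.0, against 23.4% of the narrower ones. Pileup and background enter the fold enrichment that chose these peaks, so no test of these values applies. The differences between the sets follow in part from the rule, and why these peaks stayed below 3.0 was not tested.

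**Figure D2:**
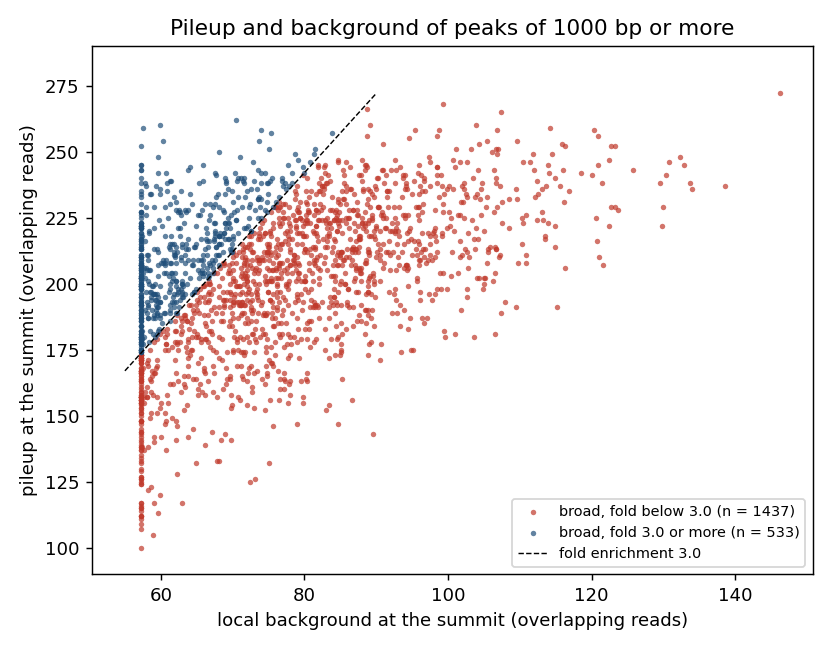
Recovered pileup at the summit (vertical axis, overlapping reads) against the local background at the same summit (horizontal axis, overlapping reads) for the 1970 peaks of 1000 bp or more, 1 point per peak, coloured by whether the fold enrichment reached 3.0. The column of points at 57.2 reads is the floor of the background, and the dashed line marks a fold enrichment of 3.0. The peaks below 3.0 span a pileup of 100 to 272 reads and a background of up to 146, and those of 3.0 or more a pileup of 174 to 262 and a background of up to 83.9.

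Each recovered background above the floor was a multiple of 0.015 within a tolerance of 0.001. That step would fit 1 read of 150 bp averaged over 10 kb, and equally other lengths in the same ratio, since the caller's settings are not given. The surroundings were described in the 10 kb centred on each summit. Other peaks covered a median of 11.7% of it around the broad peaks below 3.0, 5.90% around the broad peaks of 3.0 or more and 16.6% around narrower peaks below 3.0. The median gap to the next peak was 426 bp, 749 bp and 410 bp in the same order. Within 10 kb on either side lay a median of 7, 5 and 8 other summits. The number of protein-coding gene ends in the 10 kb had a median of 2 in each group. A local background enters the fold enrichment that divides the broad peaks at 3.0, so these differences in surroundings are not independent of the rule, and their part in the fold enrichment was not tested.

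The first question was where these broad peaks lay relative to genes. A summit was called a gene-end summit where the start or end of any gene in the table, coding or not, lay no more than 500 bp away. The table gives no strand, so a start and an end of transcription are not separated. Of the 1437 summits, 517 (36.0%, Wilson 95% interval 33.5 to 38.5%) lay at a gene end, against 31.3% of all peaks. Inside genes, away from the ends, lay 764 (53.2%, 50.6 to 55.7%), against 51.8% of all peaks. Outside genes lay 156 (10.9%, 9.35 to 12.6%), against 16.9% of all peaks. The intervals treat peaks as independent, which neighbouring peaks are not, and cover counting error only.

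The comparison depended on which peaks were set beside them. The broad peaks of 3.0 or more had 58.3% at gene ends, 35.3% inside genes and 6.38% outside. The narrower peaks below 3.0 had 29.3%, 53.2% and 17.5%. The broad peaks below 3.0 therefore stood 6.67 percentage points above the narrower ones in gene-end share (95% interval 4.18 to 9.24, from the Wilson limits), with the same share inside genes and a smaller one outside.

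**Figure D3:**
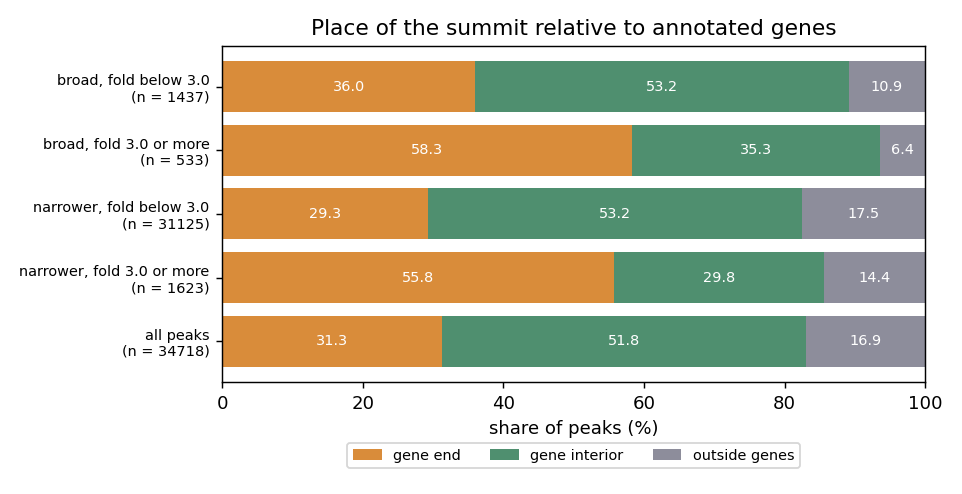
Share of summits (horizontal axis, %) at gene ends, inside genes and outside genes in 5 sets of peaks, 1 bar each, with the number of peaks beside the bar. The broad peaks below 3.0 have 36.0% at gene ends, between the 58.3% of equally broad peaks of 3.0 or more and the 29.3% of narrower peaks below 3.0.

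That difference turned at equal fold enrichment. The broad peaks below 3.0 have the higher fold enrichments of the 2 sets. From 1.75 to 3.0 the gene-end share climbed with fold enrichment in both width classes. Among peaks of 2.0 to 2.25 it was 22.5% in broad and 32.8% in narrower peaks, at 2.25 to 2.5 it was 32.8% and 39.3%, and at 2.75 to 3.0 it was 48.1% and 53.9%. The broad peaks stood lower in 5 of 6 bins of 0.25. The exception was the lowest bin, with 14 broad peaks, at 21.4% against 19.0%. When the narrower peaks were weighted to the same counts per bin, 42.5% of them lay at gene ends, 41.2% inside genes and 16.3% outside. The broad peaks differed from these by −6.54 points in gene-end share, and their share inside genes was 53.2% against 41.2%.

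**Figure D4:**
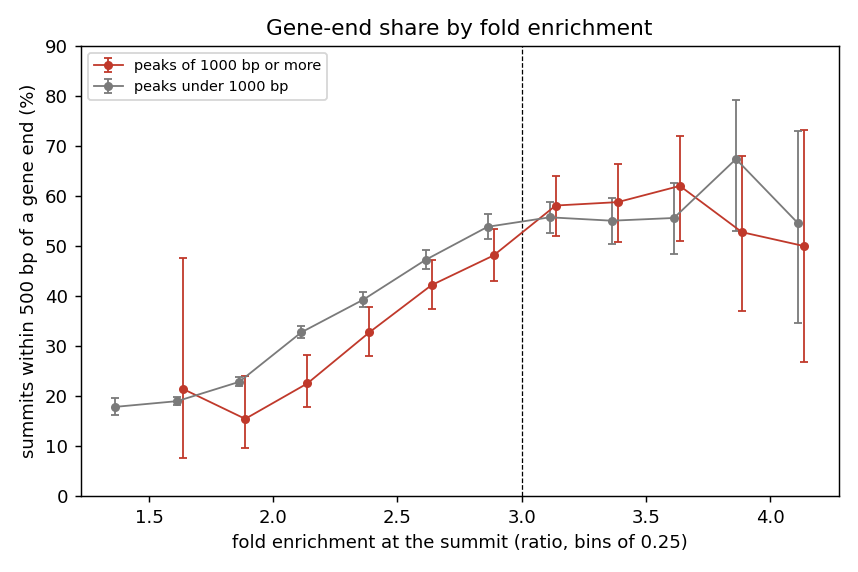
Share of summits within 500 bp of a gene end (vertical axis, %) by fold enrichment in bins of 0.25 (horizontal axis, a ratio), for peaks of 1000 bp or more and for peaks under 1000 bp, in bins of at least 14 peaks. Bars are Wilson 95% intervals, and the dashed line is the threshold of 3.0. From 1.75 to 3.0 the broad peaks lie below the narrower ones, at 15.5% against 22.9% in the lowest of these bins and 48.1% against 53.9% in the highest.

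The gap at equal fold enrichment was found at short distances. With gene ends drawn at 250 bp it was −7.54 points, and at 1000 bp it was −0.841 points, with 50.5% of the broad and 51.4% of the weighted narrower summits inside that distance. A weighting by pileup instead gave narrower peaks a share of 33.4%, 2.56 points below the broad peaks, and a weighting by background gave 27.1%, 8.88 points below. By arm, the gene-end shares of broad peaks and of fold-weighted narrower peaks were 33.3% and 41.4% on 2L, 36.2% and 48.8% on 2R, 33.0% and 39.5% on 3L, and 37.2% and 44.4% on 3R. On X they were 40.4% and 40.3%, and chromosome 4, with 3 of the broad peaks, is left out. These weightings, including that by fold enrichment, were chosen after the shares had been seen.

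Within the 1437 peaks, place differed with background, which is one of the values that chose them. In the 479 of them with the lowest background, 42.6% of summits were at gene ends and 43.8% inside genes, with a median pileup of 174 reads. The next 479 had 37.6% and 53.4% at a median of 208 reads. In the 479 with the highest background, 27.8% were at gene ends and 62.2% inside genes, with a median pileup of 221 reads. From the lowest background to the highest, the median fold enrichment was 2.70, 2.61 and 2.25. Background and fold enrichment thus changed together across these sets, and their parts in the place were not separated. A fold enrichment below 3.0 limits the pileup to about 3 times the background. The order of the pileups is thus not independent of the rule, and its cause was not tested. Width moved the place less, with gene-end shares of 37.8% at 1000 to 1249 bp, 32.8% at 1250 to 1499 bp, 34.0% at 1500 to 1999 bp and 36.7% (11 of 30) above that.

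The distances from the summits to the nearest gene end were put in bands. Within 100 bp lay 247 (17.2%) of the summits, against 15.1% of all peaks. At 101 to 500 bp lay 270 (18.8%, against 16.1%). Another 209 (14.5%) lay at 501 to 1000 bp, against 9.97% of all peaks. In that band lay 9.87% of narrower peaks below 3.0 and 13.3% of broad peaks of 3.0 or more. Beyond 10 kb lay 181 (12.6%, against 13.6% of all peaks). The median distance was 981 bp, against 1858 bp for narrower peaks below 3.0 and 285 bp for broad peaks of 3.0 or more. The summit stood in the outer 25% of its own peak, on one side or the other, in 528 cases (36.7%). The share was 22.8% in narrower peaks below 3.0 and 29.1% in broad peaks of 3.0 or more. Many of the broad peaks below 3.0 thus reach well to one side of their highest point.

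More of the broad peaks covered a gene end than had their summit at one. At least 1 gene end lay under 614 of them (42.7%, Wilson 95% interval 40.2 to 45.3%), against 20.6% of all peaks, 67.2% of broad peaks of 3.0 or more and 17.3% of narrower peaks below 3.0. In 128 (8.91%) an end was covered although the summit lay more than 500 bp from any end. The same held for 10.1% of broad peaks of 3.0 or more and 0.648% of all peaks. Ends of 2 or more genes lay under 197 (13.7%), against 3.65% of all peaks and 26.6% of broad peaks of 3.0 or more. Ends of 2 or more protein-coding genes lay under 141 (9.81%), against 2.78% and 19.9%. Per kb of peak the number of ends covered was 0.503, against 0.826 in broad peaks of 3.0 or more and 0.542 in narrower peaks below 3.0. In windows of 1194 bp centred on each summit, 39.9% of the broad peaks below 3.0 held an end, against 62.7% and 31.7%. The nearest end belonged to a protein-coding gene for 448 of the 517 gene-end summits (86.7%, against 85.0% over all peaks), to a long non-coding RNA gene for 37 and to a tRNA gene for 9.

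The 764 summits inside genes were spread along them. Of these, 753 lay in 592 protein-coding genes. Over the summits the gene length had a median of 25813 bp. It was 31694 bp for narrower peaks below 3.0 and 25722 bp for broad peaks of 3.0 or more. Genes over 20 kb held 430 (57.1%, against 64.6% and 55.4% in the same order). The outer 10% of the gene on either side held 128 (17.0%, against 14.1% and 20.7%). The middle 20% of it held 20.7% (against 22.6% and 20.1%). Exons, introns and UTRs are not separated in the gene table. The summits farthest from any gene end were a neighbouring pair inside heph, which encodes an RNA-binding splicing regulator (chr3R:31901103-31902224, 54592 bp away, and chr3R:31899755-31901009, 53905 bp away). Next came a summit inside the homeobox gene hth (chr3R:10586315-10587723, 52533 bp away). All coordinates are of dm6 and count from 1. The longest host genes were kirre, an immunoglobulin-family gene of myoblast fusion with a span of 394149 bp, pum, which encodes a translational repressor, and heph. Of the 156 summits outside genes, 43 lay more than 5 kb from any gene end, with a median of 2058 bp and a maximum of 51875 bp.

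The widest of these peaks, 2823 bp, covered the whole lysozyme gene LysP (chr3L:1216786-1219608, fold enrichment 2.25, 169 reads over a background of 74.6). A second lysozyme gene, LysS, lay under a peak of 2699 bp further along the arm (chr3L:1227299-1229997, 2.68, 192 reads over 71.1). Both lie within the span of mwh, which sets the number of hairs that an epidermal cell makes, so either gene could be assigned to these peaks. At Ets98B, an ETS-family transcription factor gene, a peak of 2719 bp had its summit 417 bp from the gene's end (chr3R:27736286-27739004, 2.49, 241 reads over 96.3).

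The peak of 2631 bp at CG13204 had a fold enrichment of 2.13, with 209 reads over 97.7. A peak of 2478 bp lay deep inside Tl, which encodes the Toll receptor (chr3R:26830841-26833318, 2.81, 225 reads over 79.5, 11024 bp from its nearer end). Another of 2463 bp lay inside bs, the serum response factor gene, 11995 bp from the nearest protein-coding gene end, that of the small gene CG44812 (2.87, 187 reads over 64.4). The ecdysone-inducible gene ImpL1 had one of 2458 bp with the summit 59 bp from its end (chr3L:13380791-13383248, 2.35, 211 reads over 89.0). The others among the 10 widest were at CG14636 (2403 bp), Sdb (2344 bp) and the corepressor gene CoRest (2310 bp). Of the 10, 4 had the summit at a gene end and 8 covered at least 1 end.

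The highest −log10 p belonged to a peak outside genes, 10991 bp from the nearest gene end and nearest to CG5568 (chr3L:5860096-5861400, 266 reads over 88.8). It was followed by those at Sdb (260 reads over 89.2) and in psq, which encodes a BTB-domain DNA-binding protein (245 over 82.0). The lowest belonged to a peak by Sox102F with 100 reads over the floor background, one in the kinase gene Hipk with 143 over 89.6 and one in the fatty acid synthase gene FASN1 with 105 over 58.9. The Hipk peak had the lowest fold enrichment of all 1437, at 1.59, yet more reads than the other 2.

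The second question was which genes were nearest. The nearest gene end belonged to 1233 different protein-coding genes, 8.86% of the 13922 in the table, and 1071 of them had 1 such peak. There were 162 with 2 or more and 31 with 3 or more. The homeobox gene hth, which encodes a cofactor of Hox proteins, came first with 7 of its 77 peaks (9.09%, against 4.14% of all peaks). Genes are ranked here and below by count, so a gene with many peaks can rank high for that alone. Of these 7, 5 lay inside the gene and 2 before its lower coordinate. Their widths were 1116 to 1409 bp and their fold enrichments 2.24 to 2.86. From the lowest coordinate to the highest, the pileups were 209, 157, 231, 177, 170, 237 and 215 reads over backgrounds of 88.6, 58.1, 80.2, 77.6, 75.3, 102 and 79.7. None lay at a gene end. The 5 inside the gene were spread from 7.61 to 95.9% of its length rather than next to each other.

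For 254 of the peaks the gene that holds the summit was not the nearest gene, and this changed the order of the genes. CG14589 was nearest to 5 of the peaks, and all 5 lay inside EcR, the gene of the ecdysone receptor, which spans 81215 bp. A sixth lay inside EcR as well. By the gene that holds the summit, a count made after the nearest genes had been seen, EcR came first with 6 of the 38 peaks inside it, and hth, jing, Svil and sm each held 5. The 1052 peaks inside protein-coding genes lay in 850 genes. The 6 in EcR were 1051 to 1325 bp wide, with fold enrichments of 1.90 to 2.76 and pileups from 187 to 253 reads. Their backgrounds ran from 84.6 to 121 reads, all above the median of 79.5 for the whole class. At jing, a zinc-finger gene needed in tracheal and glial cells, 5 of 56 peaks inside the gene were in the class, with pileups from 180 to 241 reads over 79.1 to 110. A sixth lay 96 bp before its lower coordinate, with 256 reads over 88.8.

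Src42A, which encodes a Src-family kinase that acts at adherens junctions, had the class at 4 of only 8 peaks. These were 1025 to 1661 bp wide with fold enrichments of 2.27 to 2.85, 1 of them at the gene's end. CG30089 had 4 of 11, all in its interior, with pileups of 253, 229, 244 and 143 reads. Svil, an actin-binding supervillin gene, held 5 of 56, which include the 4 nearest to CG16762. The fold enrichments of olf413, with 4 of 59, lay between 1.84 and 2.78. A pair of its peaks had pileups of 246 and 241 reads over backgrounds of 131 and 130, the former at 1.87 and the latter at 1.84.

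Of the remaining genes among the 10 with the most peaks, scrib, which sets apical-basal polarity in epithelia, had 3 of 22. Its widest was 2197 bp, with 243 reads over 112, and another lay 6 bp from the gene's end. Ten-m, a teneurin gene, had 3 of 32 and Su(z)2, a Polycomb-group gene, 3 of 17. Widths of these 6 peaks were 1217 to 1755 bp.

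Genes were also grouped by role, in 21 lists. For each list the share of its peaks that were broad with a fold enrichment below 3.0 is set beside the 4.14% of all peaks. Wilson 95% intervals are given with no adjustment for the number of lists, and nothing particular to a list is claimed from them. For 19 of the 21 lists the interval held 4.14%.

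Among regulators of pattern, 25 of 478 peaks (5.23%, 3.57 to 7.61%) of body wall transcription factor genes were in the class, at 13 of 25 genes. None of the 25 had its summit at a gene end, 15 lay inside genes and 10 outside. Over all 478 peaks of the list 8.37% were at a gene end. The widest were inside the LIM-homeodomain gene tup (2071 bp, 197 reads over 73.2) and the T-box gene bi (2068 bp, 177 over 60.7). The POU-domain gene vvl had one of 1427 bp with 117 reads over 63.0. Hox genes had 2 of 160 (1.25%, 0.343 to 4.44%), one 611 bp from the nearest gene end by Scr and the other inside abd-A (chr3R:16823401-16824406, 186 reads over 73.2), which specifies abdominal segments.

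Signalling genes had 18 of 328 (5.49%, 3.5 to 8.51%), at 13 of 27 genes, with 4 at a gene end. The widest of them, 1758 bp, lay near brk, which encodes a repressor of Dpp targets, inside the long gene CG1677. Inside Egfr, the EGF receptor gene, a peak of 1611 bp had 207 reads over a background of 122 and a fold enrichment of 1.70. The Wnt gene wg had one of 1573 bp in its interior (chr2L:7312893-7314465, 2.87), and the BMP ligand gene dpp one of 1575 bp that lay 167 bp from its end (chr2L:2427590-2429164, 2.04). The wg and dpp peaks had pileups of 209 and 237 reads over backgrounds of 72.0 and 116.

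Notch pathway genes had 8 of 77 (10.4%, 5.36 to 19.2%), at 4 of 11 genes. Of these 8 peaks, 4 lay outside genes. The members were Ser, which encodes a Notch ligand (1619 bp, 195 reads over 84.2), the receptor gene N (1320 bp, 227 over 84.3), the target gene E(spl)mbeta-HLH (1272 bp, 236 over 109) and fng, which encodes a glycosyltransferase that modifies Notch (1102 bp, 214 over 107). Genes of planar polarity had 11 of 136 (8.09%, 4.58 to 13.9%), at 7 of 13 genes. The widest were inside pk (1502 bp), the atypical cadherin gene ds (1252 bp) and the palmitoyltransferase gene app (1245 bp). Another, of 1195 bp, lay 422 bp from the end of the kinase gene fj. These were the 2 lists whose interval lay above 4.14%.

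Ecdysone response genes had 12 of 264 (4.55%, 2.62 to 7.78%), close to the share of all peaks. They lay at 10 of 14 genes, against 8.86% of all protein-coding genes, but the 14 genes carry 264 peaks between them. The lists count a peak by its nearest protein-coding gene. The 5 peaks inside EcR that are nearest to CG14589 are therefore not among these 12. The nuclear receptor gene Hr4 had one of 2108 bp (chrX:1951125-1953232, 175 reads over 64.3). A peak of 1793 bp was nearest to br, a zinc-finger gene of the ecdysone cascade, and lay inside the overlapping span of Mur2B. At ftz-f1, the competence factor gene, a peak of 1627 bp lay 96 bp from the end (2.98, 199 reads over 66.0), and inside Eip75B one of 1427 bp had a fold enrichment of 1.78, with 193 reads over 108. Chromatin-opening and epidermal factors had 5 of 107 (4.67%), with grh (1635 bp, 242 reads over 114) and lola (1433 bp, 232 over 110) widest. The list of zinc-finger and BTB factors had 6 of 184 (3.26%), none at a gene end, against 13 of all 184 (7.07%).

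Genes that build the epidermal surface gave similar shares. Trichome genes had 5 of 115 (4.35%), among them the zona pellucida protein gene m (2118 bp, 173 reads over the floor background) and ovo, the regulator of hair formation (1318 bp, 175 over 64.3). Adhesion and polarity genes had 13 of 220 (5.91%), at 9 of 18 genes, including the polarity genes crb (1541 bp) and sdt (1440 bp) and the junction gene pyd (1540 bp). Actin regulators had 5 of 113 (4.42%), with the cofilin gene tsr at 2102 bp and Rho1 at 1522 bp. Chitin and matrix genes had 5 of 91 (5.49%), 3 of them at a gene end, namely those of Gasp, pio and obst-A, which encode matrix proteins. Pigmentation genes had 2 of 28 (7.14%), at b and stw, and growth control genes 4 of 103 (3.88%), at Akt, ex, foxo and InR.

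Among genes of other cells, muscle genes had 3 of 144 (2.08%), at Msp300 and Zasp52, and tracheal genes 4 of 153 (2.61%), at vvl, kni and knrl. Neuronal genes had 2 of 19, at futsch (1696 bp, 237 reads over 79.0) and elav (1660 bp, 217 over 73.8). The elav peak had its summit inside arg, 758 bp from the nearest end of elav. That of Zasp52 lay inside tun, 47 bp from an end of Zasp52. Hemocyte and fat body genes had 0 of 40, which allows up to 8.76% by the Wilson interval, and oenocyte genes 0 of 19. Chemosensory receptor genes had 8 of 195 (4.10%) at 8 of 179 genes. None of the 8 had its summit at a gene end, against 44 of all 195 (22.6%). Of these, the peak nearest to Gr39a lay inside Mondo and that nearest to Or67b inside Cyp40. Ribosomal protein genes had 5 of 133 (3.76%), and all 5 lay at a gene end, among them RpL40, RpL10, RpL3 and RpL13. Over all 133 peaks of that list 78.2% lay at a gene end.

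**Figure D5:**
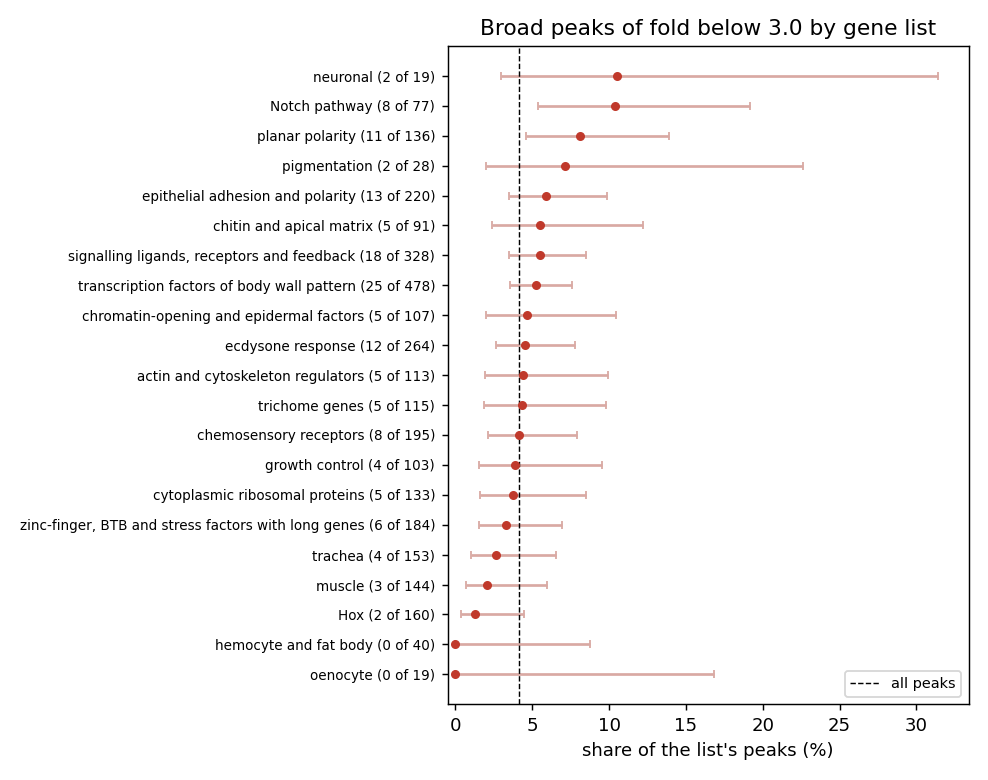
Share of each list's peaks that are broad with a fold enrichment below 3.0 (horizontal axis, %), for 21 gene lists in order of that share, with the counts beside each name. Points are shares, bars are Wilson 95% intervals and the dashed line is the 4.14% of all peaks. The intervals of the Notch pathway (8 of 77) and planar polarity (11 of 136) lists lie above the line, and those of the other 19 lists cross it.

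The arms carried different shares. Of the peaks on 2R, 359 of 6444 (5.57%, Wilson 95% interval 5.04 to 6.16%) were in the class, against 379 of 8291 on 3R (4.57%), 279 of 7606 on 3L (3.67%), 198 of 5502 on X (3.60%) and 219 of 6605 on 2L (3.32%). Chromosome 4 had 3 of 270 (1.11%), the widest of them inside the homeobox gene zfh2 (1992 bp). In 116 windows of 1 Mb with at least 100 peaks the share ran from 0.465 to 9.87%, with a median of 4.08%. The highest window was at 6 to 7 Mb on 2R, where EcR and jing lie. From 6 to 8 Mb, an interval chosen after its values were seen, 56 of 654 peaks (8.56%) were in the class, and 5.23% of the others on 2R, against 3.81% on the other arms together.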

How the data were processed

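ATAC-seq was done on 3 replicates of 1 group. The submitters' processing notes name MACS2, Picard, SAMtools and BWA, and the dm6 build. Settings, duplicate handling and how replicates were merged are not given there. Fold enrichment is deposited as a ratio on a linear scale, the deposited −log10 p and −log10 q values refer to that summit, and the deposited display score was not used. All are the authors' values per peak. Starts and summits are deposited as positions counted from 0 and were changed to count from 1.

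The reads behind each value were solved for, taking the fold enrichment to be pileup plus 1 over background plus 1 and the p-value a Poisson upper tail. A whole number of reads fitted each of the 34718 peaks within 0.002 on the −log10 scale (largest residual 0.000143). The recovery and the placing of summits were tested on simulated data. Summits were placed on RefSeq genes of the Release 6 assembly, with 17684 genes on 6 arms, spans only, and no genome sequence was used, so a planned count of short motifs was not run. The nearest gene has the protein-coding end closest to the summit, and the host is the longest protein-coding gene that holds it. Shares have Wilson intervals at 95%. Python 3.11.15, pandas 2.3.3, NumPy 2.4.6, SciPy 1.17.1 and matplotlib 3.10.9 were used.

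The regions and the gene lists were chosen with earlier results of these data known. Of 248 names in the lists, 16 were not found and were left out. Named genes follow a rule: the 10 widest peaks and the widest per arm, 3 on each side of each threshold, the 10 genes with the most peaks, the 3 farthest from gene ends, the 5 in the longest hosts, the 3 that cover most ends, the 3 highest and lowest by −log10 p, and up to 4 genes per list by width. Genes named by the count of peaks they hold, by whole genes covered or by runs were chosen after their values were seen. Alternatives changed the gene-end distance, the genes, the point, the thresholds and the set compared. One merged list gives no replicate error, so no test was made.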

Additional observations from a re-analysis of the deposited data

How the results depend on the processing

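The gene-end share of 36.0% was 26.0% within 250 bp, 50.5% within 1000 bp, 32.4% with protein-coding genes only and 42.7% by overlap with a gene end. It was 33.4% at a width threshold of 1200 bp, 26.6% at a fold threshold of 2.5 and 40.9% at 3.5. The share inside genes was 61.5%, 41.7%, 47.1%, 56.6%, 61.5% and 49.2% within 250 bp, within 1000 bp, by overlap, at 1200 bp, at 2.5 and at 3.5. That outside genes was 7.79% within 1000 bp and 13.2% with protein-coding genes only. The excess of 6.67 points over narrower peaks below 3.0 was 11.3 within 1000 bp, 25.4 by overlap, 3.86 at 1200 bp, 0.499 at 2.5, 10.5 at 3.5 and 2.56 with narrower peaks weighted by pileup. It reversed to −2.59 with peaks at or above the median −log10 q and to −6.54 with weighting by fold enrichment. The deficit of −6.54 was −0.841 within 1000 bp and reversed to 9.82 by overlap, where a wider peak covers more sequence by construction. Otherwise the cause was not tested. With 1 arm left out at a time, the share was 35.3 to 36.7%, the excess 5.47 to 7.49 and the deficit −8.00 to −5.41. There were 3055 such peaks at 800 bp, 701 at 1200 bp and 706 at 2.5. With the gene that holds the summit in place of the nearest where there is one, 1170 genes had a peak. With only peaks at or above the median −log10 q, counts per arm stayed within 1.5 times, with chromosome 4 at that limit (2 against 3). All alternatives for the 2 differences were chosen after seeing the data. No paired analysis was possible because the list merges all 3 replicates of 1 group, and for the same reason no replicate could be left out. The background floor and the unknown depth per replicate limit what low peaks show.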

Other observations

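Small RNA genes lay whole under some of the broad peaks below 3.0. In all, 58 of the peaks (4.04%) held at least 1 complete gene, against 0.902% of all peaks and 4.69% of broad peaks of 3.0 or more. Of the 72 genes so held, 22 were tRNA genes under 11 peaks, 17 long non-coding RNA genes and 13 protein-coding genes. There were also 7 antisense RNA genes, 5 miRNA genes and 5 snoRNA genes. A peak inside CG4238 held 3 glutamine tRNA genes (chr2L:2009400-2011134, 1735 bp, fold enrichment 2.51, 189 reads over a background of 74.8). One near the end of osp held 3 proline tRNA genes (chr2L:14598682-14599783, 1102 bp, 2.23, 233 reads over 104). Another on 3L held 3 leucine tRNA genes (chr3L:8059829-8060857, 1029 bp, 1.98). The peaks at CG34228, CG4238 and osp covered 7 gene ends each, the most of any. Reads from identical tRNA copies may be placed at any copy or dropped, and how the authors treated them is not given in their notes. The 5 miRNA genes were under 5 different peaks, and 3 of them are mir-9374 on 2L, mir-4968 on 3L and mir-4957 on X. Among the protein-coding genes held whole were the ribosomal protein gene RpS28a and the translation factor gene eEF1beta.

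Broad peaks below 3.0 made up 4.14% of all peaks, so most would lack a direct neighbour of the class at that share alone. The counts below are a description, and no spacing is read from them. Of the 1437, 1290 had no other broad peak below 3.0 as a direct neighbour, 69 pairs stood next to each other, and there were 3 runs of 3. A run inside jing spanned 7133 bp with fold enrichments of 2.11 to 2.73. A second, by orion and sws on X, spanned 15465 bp (2.51 to 2.85), and the last, by Slmap and CG40006 near the base of 2L, spanned 178189 bp (2.90 to 2.99). That run shows that neighbours in the list can lie far apart where peaks are rare.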
